A study of Mus musculus with 6 samples.

Results

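The messages of 10 core pluripotency transcription factors were followed through the last step of a ribosome purification from mouse embryonic stem cells: Pou5f1, Sox2, Nanog, Klf2, Klf4, Klf5, Esrrb, Tfcp2l1, Zfp42 and Tbx3. They were taken by name, and all 10 were found among the 51912 genes that could be matched and passed the filter on low counts with 13231 genes in all. The cells were E14, an established line of mouse embryonic stem cells with no modified allele named in the labels, grown on gelatin with serum and leukemia inhibitory factor, and every sample was exposed to cycloheximide, which holds ribosomes on their messages, shortly before harvest. Ribosomes were pelleted from lysates by ultracentrifugation on sucrose, and the material of each cushion was split: one portion was extracted directly (the pellet group, 3 libraries of poly(A) RNA) and the other was first bound to and eluted from a cysteine-charged resin, the step that gives the method named RAPIDASH its enrichment (the eluate group, 3 libraries). The comparison asks which messages this resin step holds or loses relative to the cushion alone. Intact cells, whole lysate and unbound material are not among these samples, so a level here is a share of what the pellet or the eluate holds. For such a level in bulk samples, a message held by few cells and one held at a low amount per cell cannot be told apart.

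Embryonic stem cells keep the capacity to form all lineages through a small network of transcription factors that bind each other's genes and support their own expression. Pou5f1 (Oct4), a POU-domain factor, and Sox2, an HMG-box factor, bind DNA as partners, and Nanog, a homeodomain protein, joins them at many sites. Klf2, Klf4, Klf5, Esrrb, Tfcp2l1 and Tbx3 sustain the naive state downstream of leukemia inhibitory factor and related signals, and Zfp42 (Rex1) is a zinc finger gene widely used as a marker of that state.

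The libraries held 7.84e+06 to 1.16e+07 estimated read counts. On the first principal component, pellet 1 lay at -19.1, between the other pellets (-42.9 and -45.3) and the eluates (30.5 to 41.8), so values without it are given for the messages it moves most. No pair of libraries was near-identical, with a chi-square per gene of at least 3.12. Whether the replicates are separate cultures is not said in the labels, so each p-value reflects the spread among these 6 libraries alone, which may be technical. The cell identity was checked on 12 other stem cell markers, all tested, whose summed level was 9176 to 10362 TPM (abundance per transcript length, as a share of the library) in the pellets and 12652 to 12723 TPM in the eluates. Most of that sum was Dppa5a, at a mean of 8908 TPM over all libraries. Summed over 8 markers each, fibroblast, endoderm and mesoderm markers reached at most 12.6 TPM in any library, trophoblast markers 34.2 TPM and neural markers 63.9 TPM, the last mostly Tubb3, and Postn, Lum, Neurog2, Elf5 and Prl3d1 were at 0 counts in every library.

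The 10 messages did not move together. Klf2, Esrrb and Pou5f1 rose in the eluates. Tfcp2l1, Sox2, Klf5, Tbx3 and Zfp42 fell. Nanog and Klf4 did not pass the test. Thus 3 of 10 were higher, where 24.5% of all tested genes were, and 5 of 10 were lower, where 28.2% were (edgeR's quasi-likelihood test, adjusted p under 0.05 over all genes). Their median log2 fold change was -0.16, beside 0.0035 over all genes tested. In 3 every eluate lay above every pellet, as in 29.1% of all genes, and in 4 every eluate lay below, as in 31.2%, so that 7 of the 10 did not overlap, against 60.3% of all genes. The changes were moderate, from a 1.64-fold rise for Klf2 to a fall to 0.679 times the pellet level for Tfcp2l1. Values below are CPM (counts scaled to a common library size with TMM factors), log2 fold changes are of eluate over pellet with their SE, and every adjusted p is from edgeR's test unless another tool is named.

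**Figure D1:**
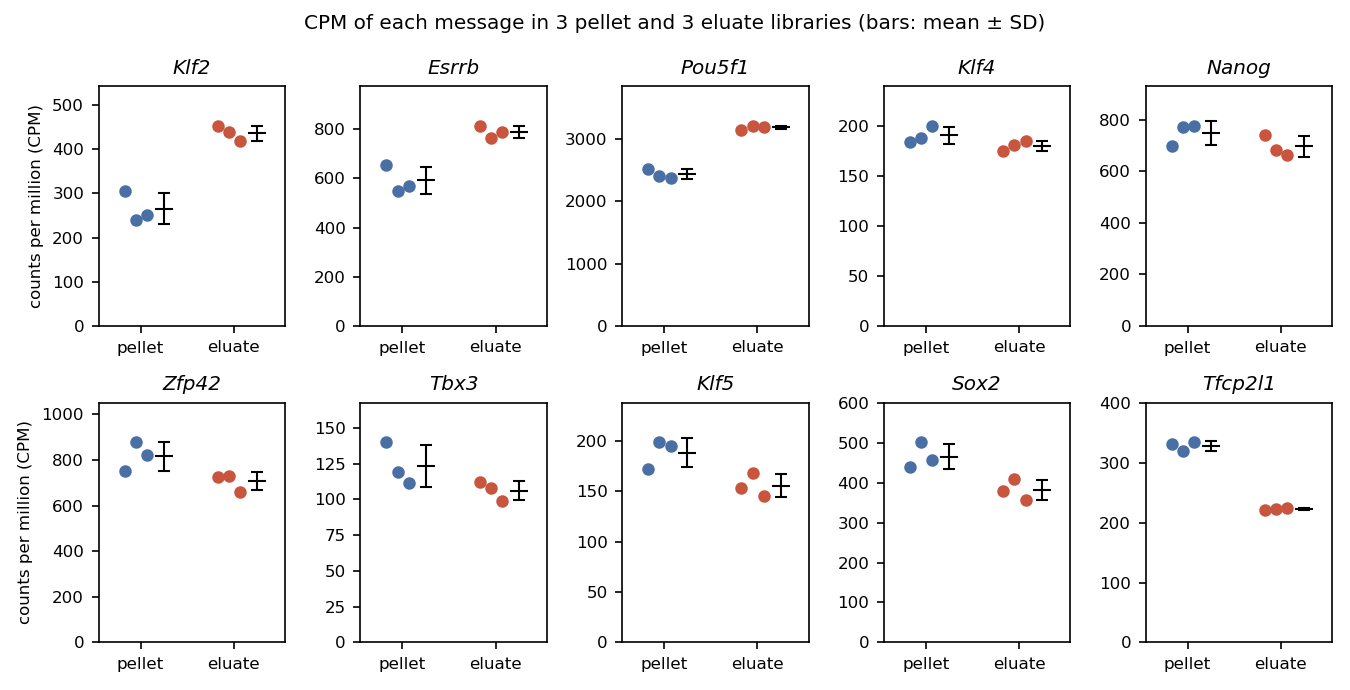
CPM of each message in the 3 pellet and 3 eluate libraries, one panel per gene with its own axis from 0; points are libraries and bars mean ± SD, in the order of the fold change. Klf2, Esrrb and Pou5f1 have every eluate above every pellet, and Sox2, Klf5, Tfcp2l1 and Zfp42 every eluate below.

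Among the central trio, Pou5f1 went up, Sox2 down and Nanog stayed within its spread. Pou5f1 was the most abundant of the 10 messages, at 2525, 2414 and 2371 CPM in the pellets and 3154, 3213 and 3199 CPM in the eluates, here and below in the order of libraries 1, 2 and 3. The groups were far apart beside their spread, and the message rose by 0.39 ± 0.061 (adjusted p = 6.78e-05). Sox2, its DNA-binding partner, was at 438, 501 and 456 CPM in the pellets and 378, 409 and 358 CPM in the eluates. It fell by 0.29 on the log2 scale (SE 0.072; adjusted p = 0.00329). Every eluate lay below every pellet, though the lowest pellet and the highest eluate were close beside the spread of either group. Without pellet 1 its log2 fold change was -0.33. Nanog was at 697, 774 and 776 CPM in the pellets and 741, 684 and 665 CPM in the eluates, so the groups overlapped. Its log2 fold change was -0.10 ± 0.069 (adjusted p = 0.219), with a limma voom 95% interval from -0.24 to 0.04, and it was called lower without pellet 1 (-0.16; adjusted p = 0.0189).

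The partners therefore changed their proportions. Per length, there were 7.63, 6.48 and 6.94 Pou5f1 transcripts for each Sox2 transcript in the pellets and 10.8, 10.3 and 11.7 in the eluates (ratios of TPM). Every eluate had the higher ratio. The ratio of Pou5f1 to Nanog was 5.43 ± 0.423 in the pellets and 7.26 ± 0.513 in the eluates (SD, n = 3 each), again without overlap. Pou5f1 alone made up 54.4% ± 1.09 of the summed TPM of the 10 messages in the pellets and 60.6% ± 1.17 in the eluates.

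The 3 Krüppel-like factors, which share a DNA-binding end and can stand in for each other in stem cells, gave 3 different calls. Whether the changes of Klf4 and Klf5 differ from each other was not tested. Klf2 was at 305, 241 and 251 CPM in the pellets and 453, 438 and 418 CPM in the eluates. Pellet 1 was the highest pellet, yet well below the lowest eluate. The rise of 0.72 ± 0.082 (adjusted p = 5.14e-06) was above that of 95.04% of all genes tested, and it was 0.83 without pellet 1. Klf4, at 184, 187 and 200 CPM in the pellets and 175, 181 and 184 CPM in the eluates, had a log2 fold change of -0.08 ± 0.066 (adjusted p = 0.327; voom interval -0.22 to 0.061). Its groups overlapped at the edge. Klf5 was at 172, 199 and 195 CPM in the pellets and 153, 168 and 146 CPM in the eluates and fell by 0.28 on the log2 scale (SE 0.077; adjusted p = 0.00684). Without eluate 3 it was at -0.23 (adjusted p = 0.05003), so the call ended there, and without pellet 1 it was at -0.34. In TPM, Klf2 made up 56.2% ± 3.69 of the 3 messages in the pellets and 69.5% ± 1.15 in the eluates.

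Esrrb and Tfcp2l1, both regulators of the naive state, moved apart. Esrrb, an orphan nuclear receptor, was at 656, 550 and 570 CPM in the pellets and 813, 766 and 789 CPM in the eluates. All eluates were above all pellets, and the message rose by 0.42 ± 0.073 (adjusted p = 0.000183), or by 0.49 without pellet 1. Tfcp2l1, a CP2-family factor that acts downstream of leukemia inhibitory factor, was at 333, 320 and 335 CPM in the pellets and 222, 223 and 225 CPM in the eluates. It had the tightest eluates of the 10 messages and the largest fall among them, by 0.56 on the log2 scale (SE 0.061; adjusted p = 2.24e-06). In TPM the ratio of Esrrb to Tfcp2l1 went from 4.06 ± 0.300 in the pellets to 7.71 ± 0.295 in the eluates.

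Zfp42 and Tbx3 had small falls whose calls were lost when some single libraries were left out. Zfp42 was at 750, 877 and 823 CPM in the pellets and 727, 731 and 660 CPM in the eluates. It fell by 0.21 on the log2 scale (SE 0.072; adjusted p = 0.0229), and pellet 1 was almost level with the highest eluate. The call was lost with a smaller change without pellet 2 (-0.15; adjusted p = 0.112) or eluate 3 (-0.16; adjusted p = 0.128), and with a change of about the same size without pellet 3 (-0.20; adjusted p = 0.0702) or eluate 1 (-0.23; adjusted p = 0.053). Without pellet 1 the fall was larger (-0.27; adjusted p = 8.5e-05). Tbx3, a T-box factor, was at 140, 119 and 111 CPM in the pellets and 112, 108 and 98.8 CPM in the eluates. The lowest pellet and the highest eluate overlapped, and the fall of 0.22 on the log2 scale (SE 0.087; adjusted p = 0.0456) was just past the threshold. It was lost without pellet 1 (-0.12; adjusted p = 0.132), and without eluate 3 (-0.17; adjusted p = 0.195). It was lost at a change as large or larger without pellet 2 (-0.24; adjusted p = 0.0607), eluate 1 (-0.25; adjusted p = 0.062) or eluate 2 (-0.23; adjusted p = 0.0982). DESeq2 (adjusted p = 0.0723) and limma voom (adjusted p = 0.0511) did not call it either. The authors' deposited table of this comparison, which lists 4892 genes, all with an adjusted p under 0.05, holds 8 of the 10 messages. Nanog and Klf4 are absent. Genes past that threshold are not listed, so the share of all genes cannot be read from it. It comes from the same libraries and is not a separate check. The authors' adjusted p is 0.0396 for Zfp42 and 0.0459 for Tbx3, both close to the threshold. In the authors' deposited table the log2 fold changes are 0.65 for Klf2, 0.39 for Esrrb, 0.35 for Pou5f1, -0.19 for Zfp42, -0.24 for Tbx3, -0.27 for Klf5, -0.29 for Sox2 and -0.53 for Tfcp2l1.

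Levels between genes were compared per length, in TPM. In the pellets the order was Pou5f1 (2107 ± 199), Zfp42 (537 ± 8.27), Nanog (388 ± 10.2), Sox2 (300.3 ± 11.4), Klf2 (183 ± 32.0), Esrrb (150.04 ± 26.8), Klf4 (75.3 ± 3.75), Klf5 (66.4 ± 0.444), Tfcp2l1 (36.8 ± 3.87) and Tbx3 (28.5 ± 5.34). The ranges of Klf2 and Esrrb overlapped, as did those of Tfcp2l1 and Tbx3, and no other neighbours did. In the eluates Klf2 and Sox2 changed places: Klf2 was at 254 to 283 TPM and Sox2 at 218 to 244 TPM. The other neighbours kept their order, with Tfcp2l1 (23.8 ± 0.459) and Tbx3 (22.6 ± 1.56) overlapping again. Summed over the 10 messages the level was 3705 to 4202 TPM in the pellets and 4119 to 4227 TPM in the eluates, which overlap. As a share of all counts, which is not per length, the 10 messages held 0.612% ± 0.0292 in the pellets and 0.689% ± 0.00633 in the eluates, with every eluate above every pellet. Pou5f1, the most abundant, had a mean of 2437 CPM in the pellets and 3189 CPM in the eluates. Of the 10 messages, 3 were called higher and 5 lower, so the share does not stand for each of them.

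**Figure D2:**
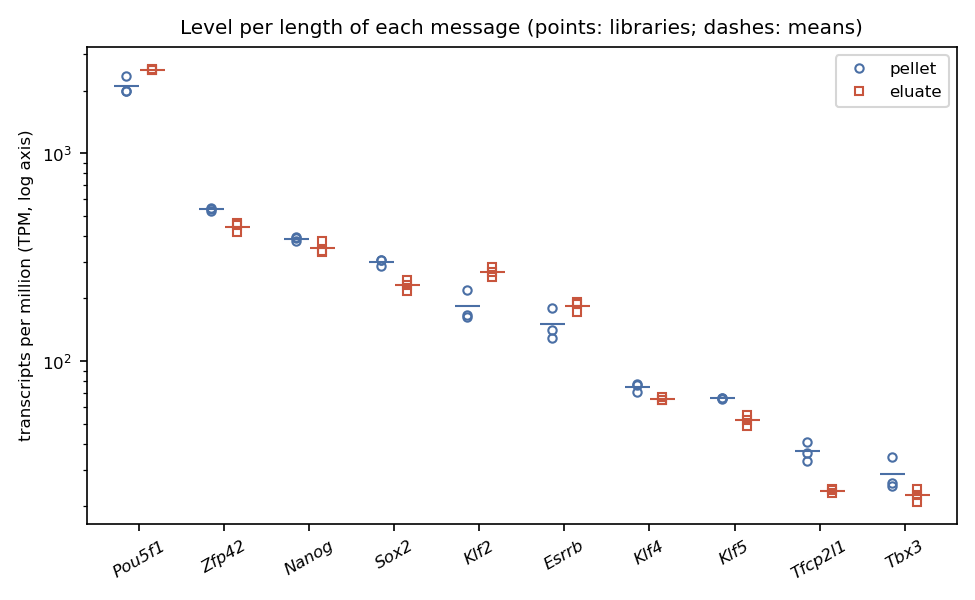
TPM of each message on a log axis, with open points for libraries (circles pellets, squares eluates) and dashes for means, ordered by the pellet mean. Pou5f1 lies above all other messages in every library, and Klf2 passes Sox2 between the pellets and the eluates.

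GC content and length differ widely among these messages, and both are tied to the change across all genes. The sequences were taken from GENCODE mouse release 21, whose genome build (GRCm38) is not that of the files, so positions are given within the coding sequence, counted from the A of the start codon. The extremes of the whole transcripts are Klf2 at 61.6% GC and Nanog at 45.8%. The most GC-rich stretch of 90 coding bases is shown for Klf2 (87.8% GC, coding bases 475 to 564) and Sox2 (78.9%, bases 13 to 102). For Nanog the poorest is shown (44.4%, bases 418 to 507). G and C are in capitals. These stretches are extremes, wider apart than the whole coding sequences, which hold 70.6% GC in Klf2, 66.0% in Sox2 and 52.6% in Nanog. The untranslated regions of Nanog hold 43.7% (5') and 40.4% (3').
Klf2: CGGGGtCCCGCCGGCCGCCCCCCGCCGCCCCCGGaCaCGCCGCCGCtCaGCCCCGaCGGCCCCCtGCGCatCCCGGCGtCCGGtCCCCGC
Nanog: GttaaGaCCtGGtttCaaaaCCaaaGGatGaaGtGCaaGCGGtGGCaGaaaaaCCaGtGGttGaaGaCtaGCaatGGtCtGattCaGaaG
Sox2: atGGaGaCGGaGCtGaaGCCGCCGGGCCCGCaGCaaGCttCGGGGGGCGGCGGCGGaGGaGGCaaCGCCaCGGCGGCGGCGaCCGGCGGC
The Klf2 stretch is made of long runs of G and C, the Nanog stretch has runs of a, and Sox2 is shown because its coding sequence and its whole message differ most.

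The 3 messages that rose were those with the most GC: Klf2, Pou5f1 (57.6%) and Esrrb (56.3%). The others ran from Klf4 (54.6%), Tbx3 (53.0%) and Sox2 (50.5%) to Klf5 (47.9%), Tfcp2l1 (47.0%), Zfp42 (46.6%) and Nanog. Across the 10 messages Spearman's rho between GC and log2 fold change was 0.67, and across 12220 coding genes it was 0.72, both as descriptions over genes that share the same libraries. Genes were placed in 10 equal groups by GC. The median log2 fold change was 0.49 in the group of Klf2, 0.35 in that of Pou5f1 and 0.30 in that of Esrrb and Klf4. It was 0.19 in the group of Tbx3, -0.06 in that of Sox2, -0.20 in that of Klf5 and -0.36 in that of Nanog, Zfp42 and Tfcp2l1. Beside these, Klf4 and Tbx3 stood low, with changes above only 13.8% and 13.6% of the genes of their groups, Klf2 stood at 80.05% and Nanog at 70.4%, and the other six stood between 29.8% and 63.6%.

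**Figure D3:**
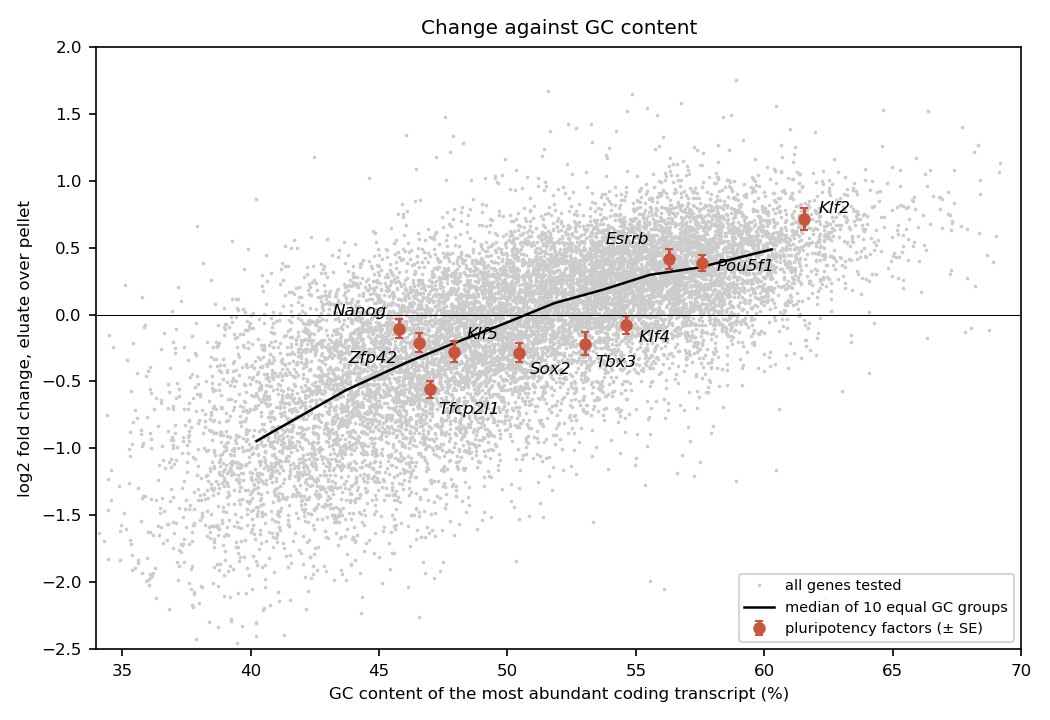
Log2 fold change of eluate over pellet against GC content of the most abundant transcript (coding where the gene has one) for all genes tested in grey, with 44 genes outside the axes, and for the 10 messages in red with SE; the line joins the medians of 10 equal GC groups. Klf2, Pou5f1 and Esrrb lie at the right above 0, and Klf4, Tbx3, Sox2, Tfcp2l1 and Klf5 lie below the line.

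The coding sequence alone did not order the messages. Sox2 had 66.0% GC in its coding sequence and 90% at the third codon positions, the highest of the 10 there, and fell. Klf4, with 62.9% coding GC, was not called. The 3' untranslated region did separate them: it held 53.6% GC in Esrrb, 51.1% in Pou5f1 and 48.2% in Klf2, and between 33.1% (Zfp42) and 45.5% (Tfcp2l1) in the other seven, where the median of 12029 coding genes was 44.9%. Spearman's rho with the change was 0.55 for the 3' untranslated region and 0.30 for the coding sequence over the 10 messages, and 0.59 and 0.67 over all coding genes. That separation was seen after the values were known. For length, rho was -0.43 over the 10 messages and -0.47 over all coding genes. Tfcp2l1, which fell most, had the longest transcript at 9269 bases, of which 7734 were 3' untranslated, and a coding sequence of 1440 bases. Pou5f1 had the shortest at 1362 bases.

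**Figure D4:**
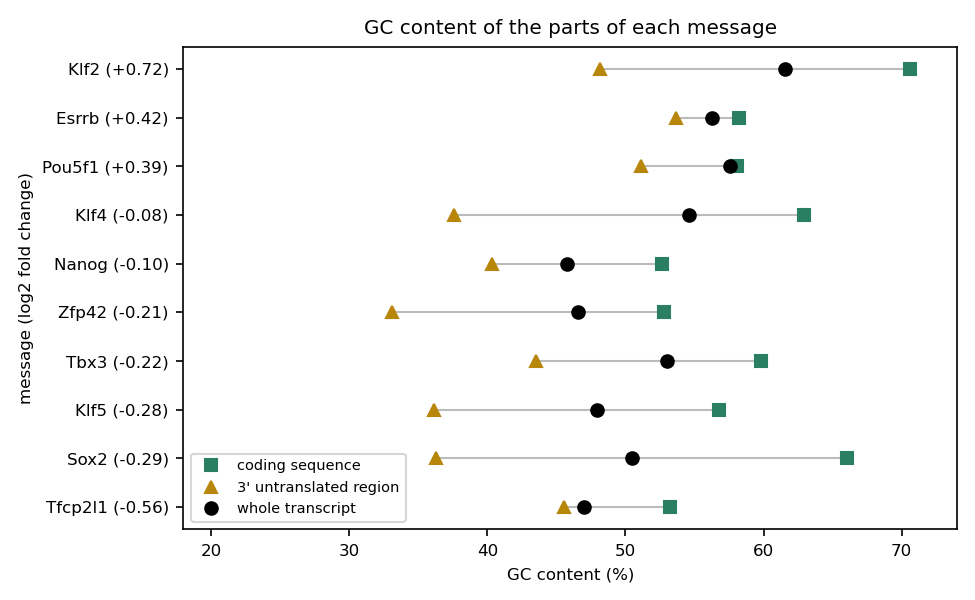
GC content of the coding sequence (squares), the 3' untranslated region (triangles) and the whole transcript (circles) of each message, ordered by log2 fold change (in brackets). The upper 3 rows, Klf2, Esrrb and Pou5f1, have triangles above 48%, and the lower 7 have them under 46%.

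The Krüppel-like factors are homologous at one end, which allows their messages to be set side by side. Their last coding stretch, which encodes the zinc fingers, is shown over the same 80 codons for each, with G or C at the third codon position in capitals (coding bases 823 to 1062 in Klf2, 1210 to 1449 in Klf4 and 1096 to 1335 in Klf5).
Klf2: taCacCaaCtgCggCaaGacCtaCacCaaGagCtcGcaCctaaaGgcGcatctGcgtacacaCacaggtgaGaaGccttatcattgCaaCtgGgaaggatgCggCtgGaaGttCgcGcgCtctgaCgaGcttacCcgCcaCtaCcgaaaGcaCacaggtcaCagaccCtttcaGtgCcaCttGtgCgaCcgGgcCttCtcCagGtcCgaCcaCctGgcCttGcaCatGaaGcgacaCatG
Klf4: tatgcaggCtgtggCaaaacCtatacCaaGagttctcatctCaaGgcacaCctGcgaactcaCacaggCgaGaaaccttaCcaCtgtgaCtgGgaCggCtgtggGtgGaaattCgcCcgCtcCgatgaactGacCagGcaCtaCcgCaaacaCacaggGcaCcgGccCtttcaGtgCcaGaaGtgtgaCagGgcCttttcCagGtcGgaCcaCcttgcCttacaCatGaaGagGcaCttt
Klf5: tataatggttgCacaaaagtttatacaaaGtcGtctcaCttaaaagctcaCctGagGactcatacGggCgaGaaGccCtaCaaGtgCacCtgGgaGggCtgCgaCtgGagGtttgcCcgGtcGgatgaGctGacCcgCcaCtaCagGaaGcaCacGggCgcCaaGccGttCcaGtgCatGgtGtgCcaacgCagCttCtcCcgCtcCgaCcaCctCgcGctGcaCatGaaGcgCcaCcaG
In this stretch Klf2 and Klf5, which changed in opposite directions, had nearly the same GC content (57.5% and 57.9%) and 61 and 63 of 80 codons ending in G or C, against 53 in Klf4. Klf2 and Klf4 shared 93.1% of bases at first and second codon positions and 48.8% at the third positions, and Klf2 and Klf5 81.9% and 47.5%. Over the whole coding sequence they differed, with 70.6% GC in Klf2, the highest of the 10 messages, and 56.7% in Klf5. The 3' untranslated region was 737 bases long at 48.2% GC in Klf2 and 1707 bases at 36.1% GC in Klf5.

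When the dependence of each library on GC and transcript length was fitted and taken out before the test, 6 of the 10 messages were called, and 3 of the 8 called before kept their call and direction: Klf2, Esrrb and Sox2. That fit called 35.8% of all genes, 16.9% higher and 18.8% lower. Klf2 was at 0.14 ± 0.051 (adjusted p = 0.0373) and Esrrb at 0.29 ± 0.047 (adjusted p = 2.26e-05), while Sox2 was at -0.36 ± 0.057 (adjusted p = 2.06e-05). Pou5f1 turned to -0.16 ± 0.047 (adjusted p = 0.0109), and Nanog turned to 0.16 ± 0.051 (adjusted p = 0.0161). Klf4 was lower at -0.27 ± 0.061 (adjusted p = 0.000865). Tfcp2l1 was at 0.12 ± 0.051 (adjusted p = 0.0636), Klf5 at -0.06 (adjusted p = 0.483), Zfp42 at -0.07 (adjusted p = 0.274) and Tbx3 at -0.14 (adjusted p = 0.102), none of them called. With GC alone removed, Esrrb was not called at 0.092 (adjusted p = 0.208), nor was Pou5f1 at 0.0025 (adjusted p = 0.978), Klf5 at -0.09 (adjusted p = 0.239) or Zfp42 at 0.085 (adjusted p = 0.268). In that fit Klf2 was higher at 0.17 (adjusted p = 0.014) and Nanog at 0.25 (adjusted p = 0.000909). Tbx3 was lower at -0.38 (adjusted p = 5.41e-05), a larger change than before. Also lower were Klf4 at -0.33 (adjusted p = 8.77e-05), Tfcp2l1 at -0.30 (adjusted p = 6.84e-05) and Sox2 at -0.29 (adjusted p = 0.000339). Such a fit takes out any change that follows GC or length, whatever its source, and the part of GC or length in each change was not tested.

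**Figure D5:**
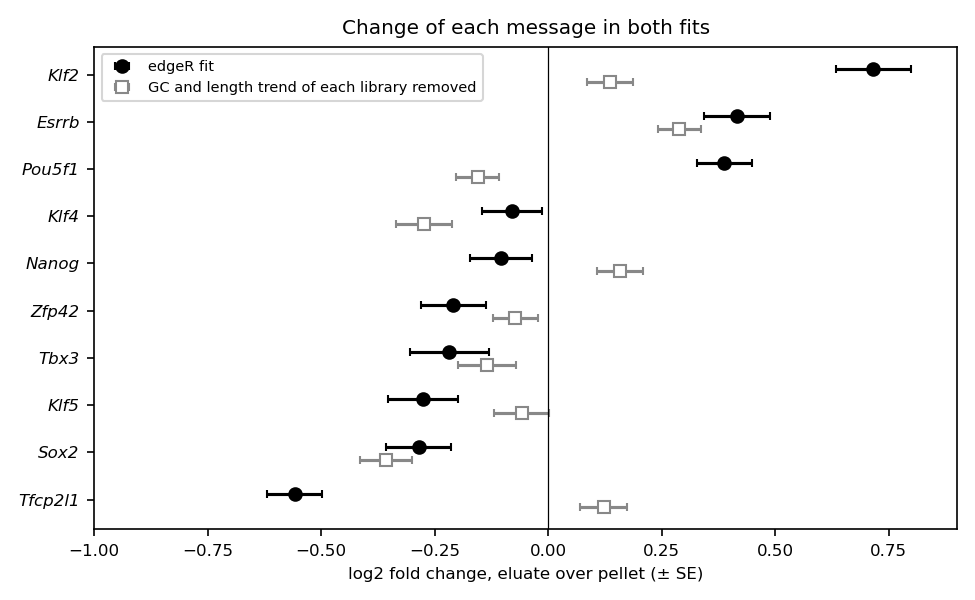
Log2 fold change of eluate over pellet with SE for each message, from the edgeR fit (filled circles) and with each library's GC and length trend removed (open squares). Klf2, Esrrb and Sox2 keep their side of 0 and their call, while Pou5f1, Nanog and Tfcp2l1 cross 0.

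Transcript forms were read from the authors' estimates per transcript. For 5 of the 10 genes a single transcript was matched, and in Klf5 and Esrrb 1 form held 99.9% and 95.8% of the gene's counts. The 3 forms of Zfp42 share a coding length of 867 bases. Tbx3 had 2 abundant forms, which differ by a coding exon of 60 bases that lengthens the T-box, the DNA-binding domain. That exon (coding bases 658 to 717, 53.3% GC, G and C in capitals) is shown because it is the whole difference between the coding sequences.
Tbx3 exon: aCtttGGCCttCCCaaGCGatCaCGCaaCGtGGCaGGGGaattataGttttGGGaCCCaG
The form with it held 29.8%, 35.6% and 30.1% of Tbx3 counts in the pellets and 31.8%, 42.3% and 35.2% in the eluates. The ranges overlap. A second Nanog form was listed at 0 in pellet 1 and eluate 3 and at 5.98% to 11.4% of Nanog counts in the other four libraries, so it did not follow the groups. Such shares are estimates from reads that mostly fit both forms. Of transcripts of other genes, Zfp42-ps1, a pseudogene, shared 14.6% of the 31-base subsequences of Zfp42 and was assigned 252 counts over all libraries against 44236 for Zfp42. Gm5712 shared 6.31% of those of Pou5f1 and was assigned 1 count. No other transcript shared 5% or more.

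Other transcription regulators of the stem cell network also went both ways. Of 20 listed, 10 rose, 6 fell and 4 did not pass, with a median log2 fold change of 0.17. Tcf7l1, a repressor in the Wnt pathway, rose by 0.88 ± 0.096 (31.2 ± 3.66 CPM in the pellets and 57.5 ± 1.27 in the eluates; adjusted p = 2.27e-06). Zfp281, a zinc finger factor, went from 92.3 ± 15.5 CPM in the pellets to 33.9 ± 2.34 CPM in the eluates, a log2 fold change of -1.444 ± 0.12 (adjusted p = 4.83e-07), a larger change than that of any of the 10 core messages. Mybl2, the most abundant of the list, rose by 0.49 ± 0.066. With the GC and length trend removed, 8 of the 20 were higher and 3 lower, beside 16.9% and 18.8% of all genes. With GC alone removed 4 were higher, beside 2481 of all 13231 genes. On log2(TPM + 1) limma called 6 of the list higher, beside 1960 of all genes. In the fit without the GC and length trend, Tcf7l1, Zfp281 and Mybl2 kept their direction and call at 0.49, -0.70 and 0.30, and without pellet 1 Zfp281 was at -1.58.

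Factors of the formative and primed states, which follow the naive state, had 3 of 10 higher and 2 lower (median -0.05). For this list and those below, the shares over all genes are 24.5% higher and 28.2% lower. With the GC and length trend removed they are 16.9% and 18.8%. Tcf15, the most abundant of them, rose by 0.54 ± 0.074 (adjusted p = 1.82e-05) and turned to -0.32 with the trend removed, while Zic5 fell by 0.61 on the log2 scale (adjusted p = 0.000214) and was at -0.36 there. With the trend removed 0 of the 10 were higher and 4 lower. Of 14 other Krüppel-like and Sp1-family messages, 3 rose and 7 fell (median -0.45). Klf16 rose by 0.61 ± 0.091, and Sp1 fell by 1.01 on the log2 scale (SE 0.072, adjusted p = 7.29e-08). Klf3, the highest of them in mean CPM, rose by 0.39 ± 0.070. Per length Klf16 was above it, at a mean of 35.7 TPM over all libraries against 29.1 TPM for Klf3. With the trend removed 3 were higher and 2 lower, with Klf3 at 0.97, Klf16 at 0.17 and Sp1 no longer called at -0.14 (adjusted p = 0.0933). Of the 12 stem cell markers used to check the cells, 7 rose and 2 fell (median 0.20), led in abundance by Dppa5a, which rose by 0.52 ± 0.062 (2933 ± 112 CPM in the pellets and 4221 ± 117 in the eluates). Without pellet 3, 4 of the 12 were called higher, beside 2615 of all 13470 genes tested there. On log2(TPM + 1) limma called 2 of the 12 higher, beside 1960 of 13231 genes. With the trend removed 6 of the 12 were higher and 2 lower, and Dppa5a was at 0.33. Whether these lists differ from the 10 core messages was not tested.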

How the data were processed

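The submitters' processing notes name the tools Salmon 1.10.3, STAR 2.7.11b, DESeq2 1.44.0 and cutadapt 4.7 and the build GRCm39. The notes give no role for any of them, and settings and annotation are likewise not given. The authors' deposited files, per the file headers, have for each library an estimated count and TPM per transcript. Their table of results, as deposited, lists a mean normalized signal, log2 fold changes, a Wald score and p-values.

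Of 84226 transcripts, 76858 were matched on unversioned identifiers to GENCODE mouse release 21 for names, lengths and sequences; the others held 1.63% to 2.35% of a library's counts. For the 8 messages in the authors' deposited table, the matched counts were 0.993 to 1.001 times the table's mean. Counts were summed per gene, rounded and tested with edgeR 4.0.16 in R 4.3.3 (quasi-likelihood, robust, TMM, default filter, Benjamini-Hochberg, adjusted p under 0.05); limma 3.58.1 and DESeq2 1.42.0 were alternatives. Trends were splines with 5 degrees of freedom. GC and length are those of the most abundant transcript. On data simulated with 13231 genes, 50 genes were given each fold change and 13031 were left unchanged. The test called 52% of those given 1.5-fold, 74% given 2-fold, 92% given 3-fold and 94% given 4-fold. Of all calls, 10.9% were false. In the libraries themselves 52.7% of genes were called, so these rates need not hold for the reported calls. Changes smaller than 1.5-fold, which most of the 10 messages have, were not simulated. The 10 messages, the lists and the alternatives were chosen with earlier results of these data known. Named were all 10 messages and, per list, the genes with the smallest p in each direction and the gene with the highest mean CPM. For the 12 stem cell markers only the gene with the highest mean CPM was named.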

Additional observations from a re-analysis of the deposited data

How the results depend on the processing

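Klf2 and Sox2 kept direction and call in all 21 alternatives (0.14 to 0.83 and -0.37 to -0.19). Esrrb lost its call in 1 (GC alone removed), Klf5 in 4 and Tbx3 in 13, among them library totals alone (adjusted p = 0.0992), log2(TPM + 1) (adjusted p = 0.066) and log2(TPM + 0.1) (adjusted p = 0.0655). Zfp42 kept its direction but lost its call in 7, among them upper quartile scaling (-0.12, adjusted p = 0.163), and changed direction in 1. Pou5f1 lost its call in 1 (GC alone removed) and changed direction in 2. Tfcp2l1 changed direction in 2. With the GC and length trend removed, Pou5f1 was at -0.16, Nanog at 0.16, Tfcp2l1 at 0.12 and Tcf15 at -0.32, and with the replicate block added at -0.16, 0.16, 0.12 and -0.32. With GC alone removed Nanog was at 0.25, Zfp42 at 0.085 and Tcf15 at -0.16. The number of the 10 messages called lower was 3 in both fits without the GC and length trend, beside 5 as reported, and over all genes 2479 were lower in the fit with the block, beside 3736; the cause was not tested. Upper quartile scaling, which moved the median of all genes from 0.0035 to 0.094, left 3 of the 10 lower and Klf4 at 0.011, with 4055 genes higher and 3184 lower, so that 56.0% of calls were higher. On log2(TPM + 1) and log2(TPM + 0.1), 1960 and 1949 genes were higher, beside 3241, and higher genes were 35.5% of the calls, beside 46.5%. Leaving out 1 library gave 2 to 5 of the 10 lower and 3 higher throughout, with 2615 to 3722 genes higher and 3224 to 4039 lower over all genes. Each pellet was divided between the groups, per the labels' protocols, but the labels do not say that the replicate number marks the pellet: deviations of libraries with the same number correlated at 0.070, 0.15 and -0.010, and not every library correlated best with its own number. With the replicate number as a block alone, 3306 genes were higher and 3770 lower, with 3 and 5 of the 10 messages.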
